A study of Rattus norvegicus with 4 samples.

Results

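The 8 genes for proteins that astrocytes release or shed, and that act on synapses, followed here were Thbs1, Thbs2, Thbs4, Sparc, Sparcl1, Gpc1, Gpc4 and Gpc6. Members were taken by gene symbol or RefSeq transcript on a rat whole-genome microarray. The rule found 7 of the 8 genes, on 8 of 41012 array probes that were not controls. Gpc1 had 2 probes and each of the others had 1. Gpc6 was not found under its symbol; a probe that the array design describes as similar to glypican 6 was followed beside the 7 and is in none of their counts.

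Thrombospondins are large secreted matrix proteins, and in the developing brain those made by astrocytes promote the formation of synapses, with the calcium channel subunit alpha2delta-1 (Cacna2d1) as a neuronal receptor. Sparcl1, also called hevin, is a matrix protein that promotes excitatory synapses by bridging adhesion proteins across the synapse, whereas its relative Sparc opposes that action. Glypicans are heparan sulfate proteoglycans held at the membrane by a lipid anchor and released by cleavage; Gpc4 and Gpc6 from astrocytes bring AMPA-type glutamate receptors to the surface of neurons.

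The cells were cortical astrocytes of Wistar rat pups at postnatal day 1, alone or under hippocampal neurons of mouse embryos at embryonic day 18, with no genetic change named in either. The RNAs compared were AA-CJ, CC and CC-CJ. AA-CJ came from astrocytes grown alone and then washed by cold jet, in which neurons are flushed off with chilled buffer. CC came from whole co-cultures, with the neurons left on, and CC-CJ from co-cultures after the cold jet. CC-CJ was in Cy3 on all 4 two-colour arrays, beside AA-CJ in Cy5 on 2 and CC in Cy5 on 2. The series gives 2 biological replicates per condition, from different pools of animals by the study's methods, so the 4 CC-CJ readings need not be 4 separate RNAs, and the comparisons with AA-CJ and with CC share CC-CJ material. Over 24865 probes, the difference between CC-CJ replicates 1 and 2 on the AA-CJ arrays correlated with that on the CC arrays at r = 0.37, a description across probes. Dyes were not swapped, so within an array dye and condition cannot be told apart. CC and AA-CJ were both in Cy5, and their comparison is free of any dye effect that was equal on all arrays. The probes were designed for rat, and how far they read mouse mRNA was not tested.

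A difference is given as log2 of one RNA over the other after correction for intensity-dependent dye bias, with its standard error (SE), and a level as the log2 signal of a channel. A gene was called at a Benjamini-Hochberg adjusted p of 0.05 in limma over 21343 genes. P-values rest on the spread between these few arrays, pooled over both comparisons and drawn by limma towards that of all genes. The gene's own arrays give 2 degrees of freedom and the prior from all genes 4.7. In bulk RNA, fewer cells of a type and less RNA per cell cannot be told apart.

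Of the 7 genes, 2 were called higher in CC-CJ than AA-CJ, Thbs4 and Sparcl1, and none was called lower. Among all genes, 3.09% were called in that comparison, 1.94% higher and 1.15% lower. An unadjusted p under 0.05 in limma was reached by 3 of the 7 there, beside 22.6% of all genes. In CC-CJ versus CC it was reached by 4 of the 7, beside 16.9% of all genes. These shares of all genes were counted in the reported fit only. Thbs4 alone was called in CC-CJ versus CC, where it was higher; 2.35% of all genes were called there, 0.0984% higher and 2.25% lower. No member was called in CC versus AA-CJ, where limma called 2.66% of all genes, 2.58% higher and 0.0797% lower; 2 of the 7 members, Thbs1 and Sparcl1, had an unadjusted p under 0.05 there, as had 17.8% of all genes. These directions hold for arrays normalised by loess; where each array was only centred on its median, without loess, the log2 differences of Thbs4 in both comparisons and of Sparcl1 turned negative, as given below for each gene.

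**Figure D1:**
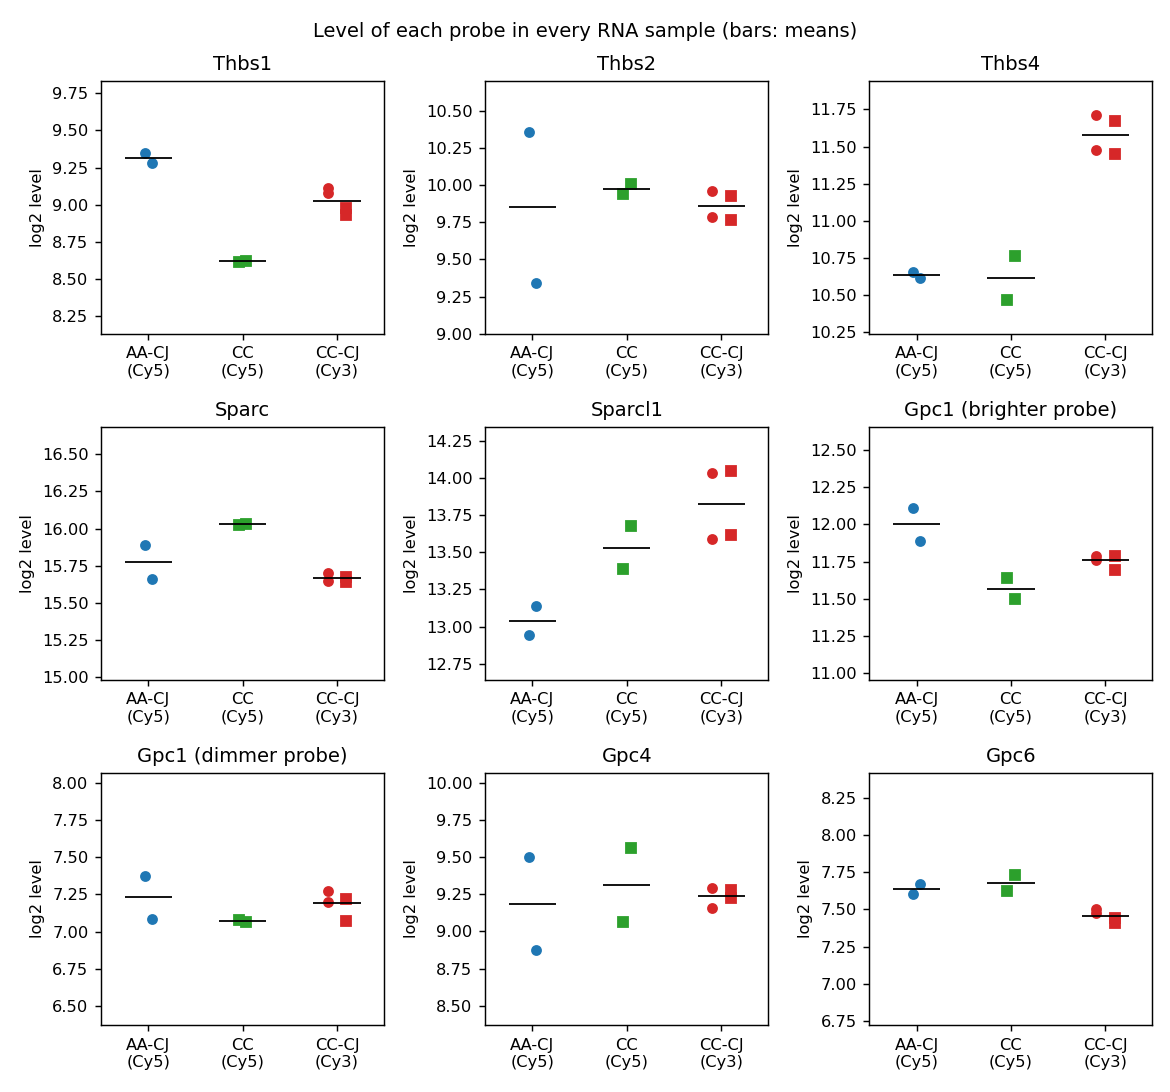
Log2 level of each probe (vertical axis, spanning the same range of log2 units in each panel) in AA-CJ, CC and CC-CJ, after loess and scaling across arrays; circles are from the arrays with AA-CJ, squares from those with CC, and bars are means. The 4 CC-CJ readings of Thbs4, all in Cy3, sit between 11.45 and 11.71, above all AA-CJ and CC readings, all in Cy5. Dye and condition cannot be told apart in that separation. Where arrays are only centred on their median, the differences of Thbs4 are negative (-0.28 and -0.24).

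Promoter sequence is shown for Thbs4 and Sparcl1, because they were the members called. It comes from RefSeq on GRCr8, whose promoter table here matched 5 of the 8 genes (Thbs1, Thbs4, Sparc, Sparcl1 and Gpc4). The 250 bases before the annotated start are printed 5′ to 3′ on the coding strand, for Thbs4 at chr2:25760346-25760595 on the minus strand and for Sparcl1 at chr14:5937234-5937483 on the plus strand. Capitals mark matches to the GC box GGGCGG on either strand, the only motif with a match.
Thbs4: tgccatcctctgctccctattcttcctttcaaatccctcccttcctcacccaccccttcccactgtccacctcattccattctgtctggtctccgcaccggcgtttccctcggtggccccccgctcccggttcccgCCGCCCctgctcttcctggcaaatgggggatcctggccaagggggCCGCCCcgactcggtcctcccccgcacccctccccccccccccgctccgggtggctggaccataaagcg
Sparcl1: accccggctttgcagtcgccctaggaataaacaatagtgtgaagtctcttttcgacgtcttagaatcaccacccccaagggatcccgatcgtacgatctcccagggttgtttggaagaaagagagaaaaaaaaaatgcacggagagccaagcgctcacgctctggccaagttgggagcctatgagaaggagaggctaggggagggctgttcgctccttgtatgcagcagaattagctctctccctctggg
Thbs4 had 2 GC boxes, both read on the opposite strand, beginning 114 and 69 bases before the start. Of 33469 rat promoters of that length, 30.5% held at least 1. Sparcl1 had none, nor did either sequence hold TATAAA, the AP-1 site TGANTCA or the cyclic AMP response element TGACGTCA, which do not overlap the GC box and were found in 12.9%, 6.34% and 1.59% of promoters. The share of G and C was 67.6% for Thbs4 and 52.4% for Sparcl1, against a median of 51.2%, and the windows held 15 and 11 CpG dinucleotides. A match is only a run of letters, and these windows were not measured in this study.

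Thbs4, a pentameric thrombospondin, was read by a probe that the files place at chr2:23011026-23011612 of rn4, a span of 587 bases; the exon was not looked up here. Its level was 10.66 and 10.61 in AA-CJ and 10.47 and 10.76 in CC. In CC-CJ it was 11.48 and 11.71 on the AA-CJ arrays and 11.45 and 11.67 on the CC arrays, higher than every reading of the other RNAs. Every CC-CJ reading was in Cy3 and every other reading in Cy5, so dye and condition cannot be told apart in this separation. A dye effect of this probe was not tested. The log2 difference between CC-CJ and AA-CJ was 0.82 on replicate 1 and 1.10 on replicate 2, with a mean of 0.96 (SE 0.096, n = 2 arrays), or 1.94-fold, at an adjusted p of 0.0086 in limma. Against CC it was 0.98 and 0.91, with a mean of 0.94 (SE 0.096, n = 2 arrays), or 1.92-fold, at an adjusted p of 0.0044 in limma. With centring on the median in place of loess these differences were -0.28 and -0.24 (adjusted p = 0.11 and 0.15), while the median of all genes lay at -0.49 and -0.59, so that Thbs4 stood 0.21 and 0.35 above that median. The call of Thbs4 was also lost in both comparisons with Agilent's processed signals (adjusted p = 0.095 and 0.069 in limma) and with a trended, robust prior (0.11 in both), with log2 differences from 0.94 to 1.03. CC and AA-CJ overlapped for Thbs4, with a log2 difference of 0.015 whose 95% interval ran from -0.31 to 0.34. A difference between whole co-cultures and astrocytes alone was thus not detectable for Thbs4 on these arrays.

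Markers of neurons moved in the same comparisons. In CC-CJ versus AA-CJ, 5 of the 13 neuronal markers tested were called higher, with the growth cone protein Gap43 at a log2 difference of 2.03, and none lower. Gap43 kept its call with Agilent's processed signals and with a trended, robust prior, and the other 4 (Dcx, Elavl4, L1cam and Mapt) lost theirs with each (adjusted p from 0.067 to 0.18 in limma), Mapt also with median centring (adjusted p = 0.12). In CC-CJ versus CC, 8 of 13 were called lower and none higher, with a median of -1.45. Of these, Elavl4 (adjusted p = 0.0859 in limma) and Nefl (0.193) lost the call with Agilent's processed signals, Nefl also with a trended, robust prior (0.0924). In CC versus AA-CJ, both in Cy5, 7 of 13 were called higher and none lower, with a median of 1.56. Elavl4 lost that call with Agilent's processed signals (adjusted p = 0.0643 in limma). The summed signal of the 14 neuronal markers was 8971 to 9449 in AA-CJ, 21109 to 21989 in CC and 8511 to 8983 over all CC-CJ readings. Snap25 and Syp were not well above background in any reading of AA-CJ or CC-CJ, nor were Dcx and Elavl4 in any of AA-CJ. Differences of such genes are taken against the floor. Of 11 astrocyte markers, the water channel Aqp4 was called higher in CC-CJ than AA-CJ (0.51, but -0.07 with median centring) and no other was called in any comparison. The call of Aqp4 was lost with Agilent's processed signals (adjusted p = 0.115 in limma) and with a trended, robust prior (0.108). The summed signal of the 11 astrocyte markers was 35162 to 41407 in AA-CJ, 38537 to 40208 in CC and 39954 to 41764 over all CC-CJ readings, and 0 of the 11 were without signal well above background in any RNA. The part of remaining neurons in the members' differences was not tested.

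**Figure D2:**
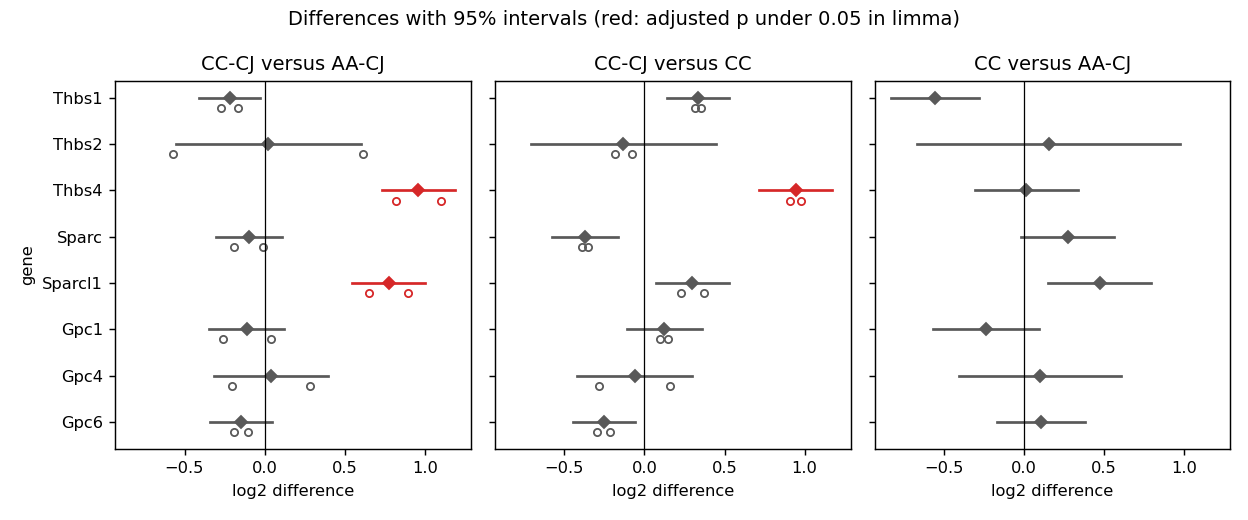
Log2 differences (horizontal axis) of the 7 members and of the Gpc6-like probe in 3 comparisons, as diamonds with 95% intervals from limma; open circles are the 2 arrays of a comparison and red marks an adjusted p under 0.05. Thbs4 lies near 0.95 in both CC-CJ comparisons and near 0 in CC versus AA-CJ; the CC-CJ differences of Thbs4 and Sparcl1 turn negative with median centring.

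Sparcl1 was read at chr14:6791986-6792045 of rn4. Its level was 12.94 and 13.14 in AA-CJ and 13.39 and 13.68 in CC. In CC-CJ it was 13.59 and 14.03 on the AA-CJ arrays and 13.62 and 14.05 on the CC arrays. All CC-CJ and CC readings of Sparcl1 were above both AA-CJ readings, and CC overlapped CC-CJ. Its log2 difference between CC-CJ and AA-CJ was 0.65 and 0.90 on the 2 arrays, with a mean of 0.77 (SE 0.096, n = 2 arrays), or 1.71-fold, at an adjusted p of 0.017 in limma. Without the second array of that comparison the call was lost, at 0.65 and an adjusted p of 0.051 in limma. It was also lost with Agilent's processed signals (0.74, adjusted p = 0.12) and with a trended, robust prior (adjusted p = 0.11), and with median centring the gene was called in the opposite direction, at -0.74 (adjusted p = 0.0011), 0.26 below the median of all genes. Median centring also called it lower against CC, at -1.06 (adjusted p = 0.00017 in limma). Against CC, Sparcl1 was at 0.23 and 0.37, a mean of 0.30 (adjusted p = 0.20 in limma). Between CC and AA-CJ it was at 0.47 (SE 0.14), with a 95% interval from 0.15 to 0.79 and an adjusted p of 0.15 in limma, and stayed positive in each of 14 alternatives, from 0.32 to 0.60. The order of the means of Sparcl1 was AA-CJ, CC, CC-CJ from low to high, and only the step from AA-CJ to CC-CJ passed the test.

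Thbs1, a trimeric thrombospondin, showed another order. Its level was 9.35 and 9.28 in AA-CJ, 8.61 and 8.62 in CC, 9.08 and 9.11 in CC-CJ on the AA-CJ arrays and 8.93 and 8.98 on the CC arrays, so that no 2 of the RNAs overlapped. Within arrays it stood at -0.27 and -0.17 in CC-CJ versus AA-CJ (mean -0.22, adjusted p = 0.18 in limma) and at 0.32 and 0.36 in CC-CJ versus CC (mean 0.34, adjusted p = 0.11 in limma). In CC versus AA-CJ the difference of Thbs1 was -0.56 (SE 0.11), with a 95% interval from -0.83 to -0.28 and an adjusted p of 0.066 in limma. With the values the authors deposited, Thbs1 passed in CC-CJ versus CC (0.50, adjusted p = 0.044) and in CC versus AA-CJ (-0.78, adjusted p = 0.030). The CC versus AA-CJ difference was negative in all 14 alternatives, from -0.78 to -0.51, whereas that between CC-CJ and CC was -0.62 with median centring (adjusted p = 0.0021). Median centring also called Thbs1 lower in CC-CJ than AA-CJ, at -1.20 (adjusted p = 9.6e-05 in limma), 0.71 below the median of all genes. The files gave no position for its probe.

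Thbs2, the other trimeric thrombospondin, was not settled by these arrays. Its probe, at chr1:53589151-53589210 of rn4, read 10.36 and 9.34 in the AA-CJ replicates, 9.94 and 10.01 in CC, and 9.76 to 9.96 in CC-CJ. The AA-CJ replicates of Thbs2 lay on either side of all other readings, and its difference to CC-CJ was -0.57 on one array and 0.62 on the other. The mean of 0.02 had a 95% interval from -0.56 to 0.60, and the differences in the other comparisons were -0.13 and 0.15. With median centring Thbs2 was called lower in CC-CJ than AA-CJ, at -1.06 (adjusted p = 0.0137 in limma), and than CC, at -1.23 (0.0062). It then lay below the median of all genes by 0.57 and 0.64.

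Sparc, a collagen-binding matrix protein, was read at chr10:40811473-40811532 of rn4. Its level was 15.89 and 15.66 in AA-CJ, 16.03 in both CC replicates and 15.64 to 15.70 in CC-CJ. Both CC readings were above all others, and AA-CJ overlapped CC-CJ. Sparc stood at -0.39 and -0.35 in CC-CJ versus CC, a mean of -0.37 (SE 0.086, adjusted p = 0.0996 in limma), which missed the threshold, and at -0.10 in CC-CJ versus AA-CJ (adjusted p = 0.55). Between CC and AA-CJ it was at 0.27, with a 95% interval from -0.02 to 0.56. Its direction in CC-CJ versus CC was negative in every alternative, from -1.89 to -0.30. With median centring Sparc was called lower in CC-CJ than AA-CJ, at -1.90 (adjusted p = 3.5e-05 in limma), and than CC, at -1.89 (5.66e-05). The median of all genes then lay at -0.49 and -0.59. With the deposited values Sparc was at 0.043 in CC-CJ versus AA-CJ (adjusted p = 0.86 in limma). Of the 7 fibroblast and meningeal markers tested, the collagen gene Col1a2 (-0.59) and the proteoglycan gene Dcn (-0.77) were called lower in CC-CJ than in CC and none higher, with a list median of -0.34 against -0.02 for all genes. Both calls were lost with Agilent's processed signals (adjusted p = 0.193 for Col1a2 and 0.0999 for Dcn in limma), and that of Col1a2 also with a trended, robust prior (0.128). Dcn alone of the 7 was called higher in CC than in AA-CJ, at 0.66 (adjusted p = 0.0421 in limma). That call was lost with Agilent's processed signals (0.231) and with a trended, robust prior (0.147). The summed signal of the 10 markers on the array was 75499 to 80539 in AA-CJ and 86544 to 87883 in CC. In CC-CJ it was 71614.5 to 75305.8 on the AA-CJ arrays and 70367 to 70782 on the CC arrays. The part of such cells in the level of Sparc was not tested.

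In the reported fit, on loess values, the glypicans showed no called difference. Gpc1 was read by a brighter probe, at 12.11 and 11.89 in AA-CJ, 11.64 and 11.50 in CC and 11.69 to 11.79 in CC-CJ, and by a dimmer one, at 7.38 and 7.09, at 7.08 and 7.06, and at 7.07 to 7.27. On both probes the AA-CJ readings were above those of CC. For CC versus AA-CJ the brighter probe gave -0.40 (SE 0.15, adjusted p = 0.23 in limma) and the dimmer -0.07 (SE 0.16, adjusted p = 0.85), and neither passed. The 2 probes averaged -0.24 (adjusted p = 0.43 in limma). With median centring Gpc1 was called lower in CC-CJ than AA-CJ, at -0.98 (adjusted p = 0.000503 in limma), and than CC, at -0.68 (0.00276). It then lay below the median of all genes by 0.49 and 0.09. No position was given for either probe.

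Gpc4, read at chrX:138978235-138978294 of rn4, differed between replicates of the Cy5 RNAs, at 9.50 and 8.88 in AA-CJ and 9.06 and 9.56 in CC, while CC-CJ lay at 9.16 to 9.29. Its within-array differences had opposite signs in both comparisons, at -0.21 and 0.28 against AA-CJ and at 0.16 and -0.28 against CC. The means of 0.04 and -0.06 had 95% intervals from -0.32 to 0.40 and from -0.42 to 0.30. With median centring Gpc4 was called lower in both, at -0.94 (adjusted p = 0.0048 in limma) and -1.09 (adjusted p = 0.0020), below the median of all genes by 0.45 and 0.50.

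The Gpc6-like probe, at chr15:102234566-102234625 of rn4, read 7.61 and 7.67 in AA-CJ, 7.62 and 7.73 in CC and 7.41 to 7.50 in CC-CJ. All 4 CC-CJ readings, in Cy3, were below all others, in Cy5, and dye and condition cannot be told apart in this. The differences were -0.10 and -0.19 against AA-CJ (mean -0.15, adjusted p = 0.33) and -0.21 and -0.29 against CC (mean -0.25, adjusted p = 0.20 in limma), and neither passed. On the 4 arrays, each probe of the members and this one cleared background in Cy3 and in Cy5, and 0 of their spots were saturated. With median centring the Gpc6-like probe passed as lower in CC-CJ than AA-CJ, at -0.70 (adjusted p = 0.000809 in limma), and than CC, at -0.87 (0.000238). It then lay below the median of all genes by 0.21 and 0.28.

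**Figure D3:**
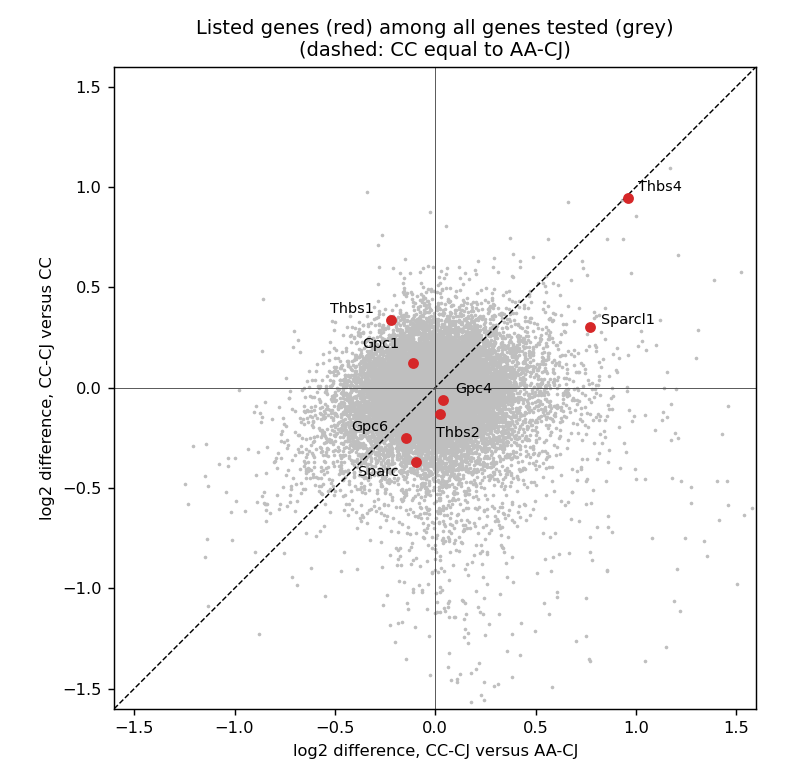
Log2 difference of CC-CJ versus AA-CJ (horizontal axis) against that of CC-CJ versus CC (vertical axis) for each gene tested (grey) and the listed genes (red); both axes share CC-CJ, 76 genes lie outside the plotted range, and on the dashed line CC equals AA-CJ. Thbs4 lies on the line at 0.96 and 0.94, Sparcl1 below it at 0.77 and 0.30 and Thbs1 above it at -0.22 and 0.34, as normalised by loess; with median centring Thbs4 and Sparcl1 are negative on both axes.

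The study selected genes of CC-CJ versus AA-CJ by limits at the mean plus or minus 2 SD of the log2 ratios of an array. The limits had to be passed on both replicate arrays, and several probes of a gene had to give similar results. Genes higher in CC-CJ were dropped if strongly lower in CC-CJ than CC, as possible remains of neuronal RNA. With these criteria applied to the loess values, the upper limits were 0.47 and 0.43, and 1.4% of all probes met all of them. Thbs4 and Sparcl1 met them, each above the limit on both arrays, and the other members did not. With limits at 3 SD, or with the deposited values, 1 member met them. Which member it was, and the share of all probes that met the criteria, are not given for those settings.

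The genes nearest to Thbs4 over the 4 arrays, by Euclidean distance of log2 ratios, were the transcription factor gene Fos (0.45), the protease gene Ctsc (0.62) and the receptor inhibitor gene Errfi1 (0.62). Those nearest to Sparcl1 were Sat1, an enzyme of polyamine breakdown (0.15), the aldehyde oxidase gene Aox1 (0.15) and the insulin-like gene Insl6 (0.25).

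Among receptors and partners of thrombospondins, 10 of 13 listed genes were tested. Cacna2d1, the alpha2delta-1 subunit, was called higher in CC-CJ than AA-CJ, at 1.03 and 0.62 on the 2 arrays with a mean of 0.82 (SE 0.12, adjusted p = 0.024 in limma), and was at -0.48 with median centring. In CC-CJ versus CC it was at -0.03, and in CC versus AA-CJ at 0.86 (adjusted p = 0.051 in limma). No other gene of that list was called in any comparison. Cd47, a membrane receptor of thrombospondin, was at 0.24, -0.30 and 0.54 in the same order, and Itgb1, an integrin chain, at 0.29, -0.05 and 0.34. The median of the list was 0.21 in CC-CJ versus AA-CJ, -0.04 in CC-CJ versus CC and 0.17 in CC versus AA-CJ, beside -0.02, -0.02 and 0.0016 for all genes.

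Among receptors and partners of SPARC proteins and glypicans, 10 of 16 listed genes were tested. The presynaptic adhesion gene Nrxn2 (-0.82), the AMPA receptor gene Gria1 (-0.69) and Nrxn3 (-0.44) were called lower in CC-CJ than in CC. Nrxn2 (0.82) and Gria1 (0.73) were called higher in CC than in AA-CJ. With Agilent's processed signals Nrxn2 lost its call in CC-CJ versus CC (adjusted p = 0.0772 in limma) and in CC versus AA-CJ (0.143). With a trended, robust prior the calls of Nrxn2 (0.0816) and Gria1 (0.0777) in CC versus AA-CJ were lost. Nrxn3 lost its call with that prior (0.12) and with median centring (0.123). Nlgn1, a postsynaptic adhesion protein that Sparcl1 binds, was called in no comparison. It was at 0.27 in CC-CJ versus AA-CJ, -0.30 in CC-CJ versus CC and 0.57 in CC versus AA-CJ.

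The relatives of the members were not called: 8 of 11 were tested, among them Thbs3, Comp, Gpc3, Gpc5, Smoc1 and Smoc2, and 0 passed in limma in any comparison, with 1, 1 and 0 at an unadjusted p under 0.05. Over all genes, 22.6% were at that level in CC-CJ versus AA-CJ, 16.9% in CC-CJ versus CC and 17.8% in CC versus AA-CJ. Fstl1, a follistatin-like relative of Sparc, came nearest, at -0.41 in CC-CJ versus AA-CJ (adjusted p = 0.067). Of 23 genes that build or edit heparan sulfate, the sugar chain of glypicans, 16 were tested and 0 were called in limma, with 5, 2 and 1 at an unadjusted p under 0.05 in these comparisons, beside the same shares of all genes. Of 4 syndecans, the other membrane proteoglycans with heparan sulfate, 0 were called in limma, with 1, 0 and 0 at that level.

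Of 16 other secreted proteins of astrocytes that regulate synapses, 13 were tested and 2 were called higher in CC-CJ than AA-CJ. The lipid carrier gene Apoe was at 0.78 and 1.03, with a mean of 0.90 (SE 0.093, adjusted p = 0.0096 in limma), and -0.99 with median centring. Chrdl1, an antagonist of bone morphogenetic proteins, was at 0.47 and 0.69, with a mean of 0.58 (SE 0.10, adjusted p = 0.041 in limma), and -0.77 with median centring. The calls of Cacna2d1, Apoe and Chrdl1 in CC-CJ versus AA-CJ were lost with Agilent's processed signals (adjusted p from 0.0955 for Apoe to 0.163 for Chrdl1) and with a trended, robust prior (from 0.0883 for Apoe to 0.116 for Chrdl1), and held with the deposited values. Apoe was also called higher in CC than in AA-CJ, at 0.83, a call lost with Agilent's signals (adjusted p = 0.20), median centring (0.51, adjusted p = 0.15) and the trended prior (adjusted p = 0.12). Neither Apoe nor Chrdl1 was called in CC-CJ versus CC, with 0.08 for Apoe and 0.33 for Chrdl1. Microglia also make Apoe. Of the 7 microglial markers tested, C1qa (1.19) and Tyrobp (0.77) were called higher in CC-CJ than AA-CJ, 4 were called lower in CC-CJ than in CC and 4 higher in CC than in AA-CJ. With Agilent's processed signals all 4 lower calls were lost (adjusted p from 0.0693 to 0.146 in limma). Those of Aif1 (0.143) and C1qb (0.0896) in CC versus AA-CJ were also lost. The summed signal of the 9 markers on the array was 1005 to 1111 in AA-CJ, 2318 to 2336 in CC and 1289 to 1542 in CC-CJ. Itgam and Cx3cr1 were not well above background in any reading, nor was C1qa in AA-CJ, nor Aif1 in AA-CJ or CC-CJ. Differences of such genes are taken against the floor. The part of microglia in these differences was not tested.

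Other cell types gave fewer calls. The endothelial receptor gene Kdr was 2.62 higher on the log2 scale in CC-CJ than AA-CJ, while 7 of 10 endothelial markers, among them Pecam1 and Cldn5, were not well above background in any reading. Of the oligodendrocyte lineage, Mag (-0.82) and Sox10 (-1.12) were called lower in CC-CJ than in CC. Mag was not well above background in AA-CJ or CC-CJ. Sox10 lost its call with Agilent's processed signals (adjusted p = 0.175 in limma) and with a trended, robust prior (0.0706). Of 6 mural cell markers, Tagln (0.60, but -0.76 with median centring) was called higher in CC-CJ than in CC. Both Thbs4 and Sparcl1 were higher in CC-CJ than AA-CJ beside these values, other than with median centring, and the part of these cell types was not tested.

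**Figure D4:**
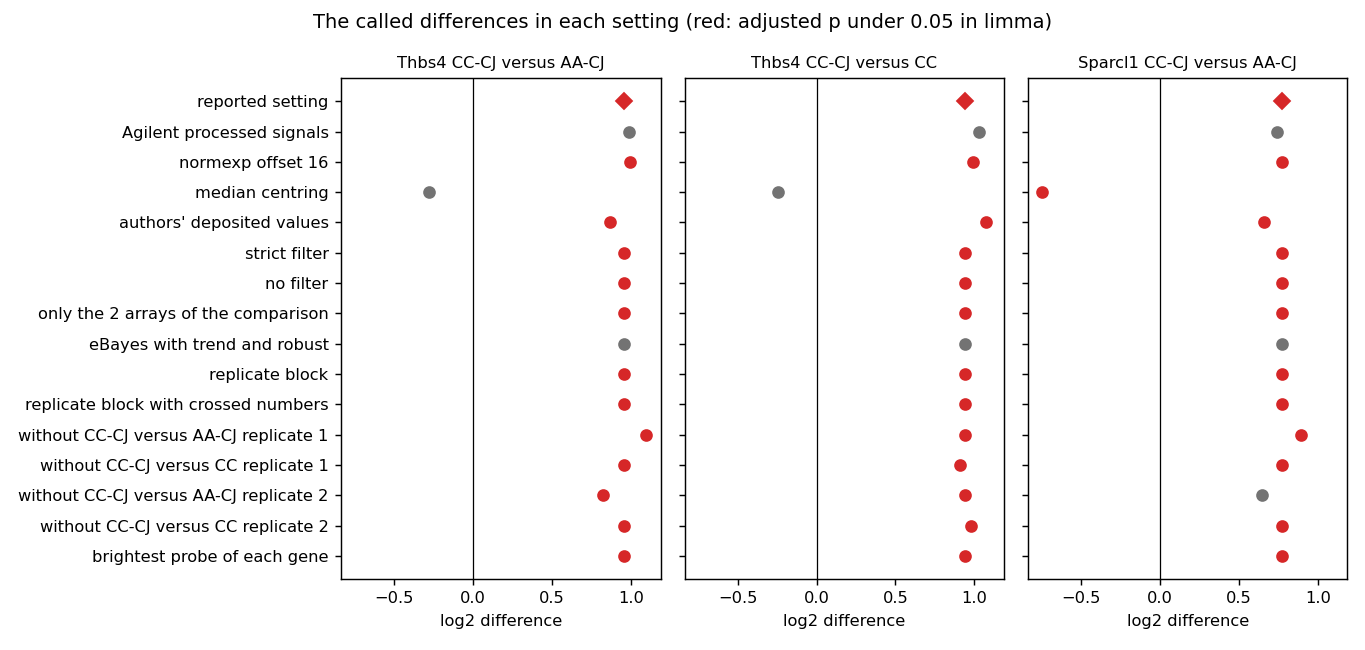
Log2 difference (horizontal axis) of the called members in each setting (vertical axis), with the reported one as a diamond; red marks an adjusted p under 0.05 in limma. All differences are positive except those with median centring (-0.28, -0.24 and -0.74), and with Agilent's processed signals or a trended, robust prior none passed.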

How the data were processed

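RNA was hybridised to 4 two-colour Agilent rat arrays on 1 slide, scanned together. The intensities of both channels were deposited by the authors as Feature Extraction 9.5.1.1 output, with positions on rn4 per the file headers, beside Agilent's log10 ratio, used to check the direction of the ratios. The authors also deposited log2 ratios normalised by OLIN and OSLIN; these were Cy5 over Cy3 and correlated with the ratios used here at 0.9 to 0.952 after the sign was turned.

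Mean and median background signals were corrected by normexp (offset 50) and loess (span 0.3) in limma 3.58.1 (R 4.3.3). Control spots had no weight and outlier spots (121 to 179 per array) were left out. Between 50.1 and 62.6% of spots were well above background per channel, which with 4 arrays limits the precision. Probes well above background on all arrays of at least 1 RNA were kept (24865) and averaged per gene. All 4 arrays entered the fit, with 2 residual degrees of freedom and a prior of 4.7. Levels were scaled by Aquantile. On simulated data with 200 of 21344 genes changed by a log2 of 1, 94% were recovered in CC-CJ versus AA-CJ and 62% in CC versus AA-CJ. The simulated noise was independent between arrays and drawn from limma's own fitted prior, without a dye effect or shared CC-CJ RNA. These shares therefore check the fit under its own assumptions and are not the power of the real arrays. Named genes were the members, called genes of fixed lists and the 3 nearest genes of each called member; Cd47, Itgb1, Nlgn1 and Fstl1 were named after their values were seen. The members and lists were chosen with earlier results of these data known. The reported fit did not take same-numbered arrays as pairs and treated the 4 arrays as independent. Deviations of the ratios of same-numbered arrays correlated at -0.112 over genes, but those ratios also carry the Cy5 RNAs. The differences between CC-CJ replicates alone correlated at 0.37 over probes. Independence of the arrays is thus not established, and CC-CJ RNA shared between them would break it. One gene of the lists is not reported here. Alternatives are given in the closing section.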

Additional observations from a re-analysis of the deposited data

How the results depend on the processing

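The members' calls rested on the normalisation and on the variance prior. Of the 7 members, 0 were called in either CC-CJ comparison with Agilent's signals or a trended, robust prior. In each, 2 and 3 respectively had an unadjusted p under 0.05 in limma, with no share of all genes. With median centring 6 were called in each, all lower, while the median of all genes moved to -0.49 and -0.59 and 13227 and 14320 genes were called. With the deposited values 2 members were called in CC-CJ versus CC and 1 in CC versus AA-CJ, among 696 and 645 genes. On those values 1 member met the study's criteria, as with limits at 3 SD, and the share of all probes is given for neither. The cause of these changes was not tested. With arrays left out in turn, 1 to 2 were called in CC-CJ versus AA-CJ.

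Several differences changed sign. Agilent's signals gave 0.0078 for Gpc4 in CC-CJ versus CC and -0.041 for Thbs4 in CC versus AA-CJ. Median centring gave, in CC-CJ versus AA-CJ, -1.06 for Thbs2, -0.28 for Thbs4, -0.74 for Sparcl1 and -0.94 for Gpc4. In CC-CJ versus CC it gave -0.62 for Thbs1, -0.24 for Thbs4, -1.06 for Sparcl1 and -0.68 for Gpc1, and in CC versus AA-CJ -0.035 for Thbs4 and -0.017 for Sparc. The deposited values gave -0.063 for Thbs2 and 0.043 for Sparc in CC-CJ versus AA-CJ, and -0.21 for Thbs4 in CC versus AA-CJ. With arrays left out in turn, CC-CJ versus AA-CJ ran from -0.26 to 0.040 for Gpc1, from -0.57 to 0.62 for Thbs2 and from -0.21 to 0.28 for Gpc4. CC versus AA-CJ then ran from -0.44 to 0.75 for Thbs2, from -0.12 to 0.15 for Thbs4 and from -0.15 to 0.34 for Gpc4, and CC-CJ versus CC from -0.28 to 0.16 for Gpc4.

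With the replicate block, 2, 1 and 0 members were called in CC-CJ versus AA-CJ, CC-CJ versus CC and CC versus AA-CJ, as without it, among 179, 315 and 297 genes. With crossed numbers, chosen after seeing the data, they were again 2, 1 and 0, among 1466, 837 and 825 genes. The other counts over all genes in CC-CJ versus AA-CJ that moved by more than 1.5 times from 659 were 77 with Agilent's signals, 63 with the trended prior, 335 with an offset of 16, 1101 with only the arrays of the comparison and 123 to 1101 with an array left out. In CC-CJ versus CC, 501 became 274 with Agilent's signals, 332 with the trended prior, 290 with the strict filter and 203 to 685 with an array left out; in CC versus AA-CJ, 567 became 249 with Agilent's signals, 348 with the strict filter and 346 to 658 with an array left out. The share of called genes that were higher in CC-CJ versus AA-CJ, 62.7%, was 89.6% with Agilent's signals, 77% with an offset of 16, 98.4% with the trended prior, 78.8% with the replicate block, 52.4% with crossed numbers, 5.33% with median centring and 54.1 to 83.3% with an array left out. In CC-CJ versus CC, 4.19% became 21.8% with the deposited values and 2.96 to 23.2% with an array left out, and in CC versus AA-CJ 97% became 82.8 to 96.3% with an array left out. Of 13, 20 and 18 calls of other listed genes and markers in the 3 comparisons, in the order given for the block, 9, 11 and 7 were lost with Agilent's signals, 9, 5 and 5 with the trended prior and 0 with the deposited values; 5, 1 and 0 changed sign with median centring. The offset, the filters (strict or none) and the brightest probe of each gene changed no member's call.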
